A study of Mus musculus with 4 samples.

Results

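Ureteric bud cells were selected from single-cell RNA counts of newborn mouse kidneys as barcodes in which at least 3 of the 7 bud genes Ret, Wnt11, Wnt9b, Gata3, Hoxb7, Calb1 and Krt19 had a UMI (a unique molecular identifier, 1 captured RNA molecule). Ret, Wnt11 or Wnt9b had to be among them, Aqp2 and Slc12a1 could have at most 2 UMIs each, and Slc12a3 none. The rule was met by 341 of 15645 barcodes that passed the cell filter in the Six2CreTet2/3f/f library and by 398 of 21188 in the Six2Cre library, or 739 of 36833 in all. The measured levels of these genes chose the cells, so their values below describe the selection and test nothing.

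The study compared whole kidneys of newborn mice of these genotypes. Six2CreTet2/3f/f mice carry floxed alleles of Tet2 and Tet3, which encode enzymes that oxidise methylated cytosine in DNA, together with a Six2-driven Cre. Six2Cre mice carry the Cre alone and are the controls, so both groups share it. Six2 is active in nephron progenitors, the mesenchyme around the bud, and not in the ureteric lineage, so the bud cells are not the cells that this Cre is known to recombine. Each genotype has 1 single-cell library, and how many animals went into each is not given in the labels. No difference between the genotypes has a replicate check, no p-value is given, and all intervals cover counting error only. The bisulfite libraries of sorted progenitors were not analysed here.

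The ureteric bud is an outgrowth of the nephric duct that branches into the kidney mesenchyme and becomes the collecting duct system. Its tips carry the receptor Ret and the co-receptor Gfra1, receive Gdnf from the surrounding progenitors, and respond by inducing Etv4, Etv5 and Wnt11, which keep the tips growing and branching. Behind the tips lie the stalks, which secrete Wnt9b to the mesenchyme and mature into collecting duct with water-transporting principal cells and acid-base-regulating intercalated cells.

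The libraries differed in depth. They hold 22543 Six2CreTet2/3f/f and 25736 Six2Cre barcodes, with 115427704 and 197745868 UMIs. Bud cells had a median of 9688 UMIs (range 1122 to 53864) in Six2CreTet2/3f/f and 13435 (range 2449 to 75627) in Six2Cre kidneys. The libraries share 99 barcodes among those that passed the filter and none among the bud cells. Levels are given as CPM, the gene's share of the summed UMIs of the cells in question times 1000000, and shares of cells with a UMI depend on depth.

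The selected cells had the marker pattern of bud epithelium in both libraries. Epcam, an epithelial adhesion protein that the rule did not use, was detected in 92.4% of bud cells in Six2CreTet2/3f/f and 83.4% in Six2Cre kidneys. Its level was 1224 CPM (95% Poisson interval 1190 to 1258) in Six2CreTet2/3f/f and 896 CPM (874 to 919) in Six2Cre bud cells, against 267 and 186 CPM in all other barcodes of the same libraries. The rule genes Ret, at 108 and 84.1 CPM, and Wnt11, at 71.1 and 86.1 CPM in Six2CreTet2/3f/f and Six2Cre bud cells, were both far above the other barcodes. Wnt9b stood at 39.4 CPM in Six2CreTet2/3f/f and 19.6 CPM in Six2Cre bud cells.

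Ret was detected in 59.2% of Six2CreTet2/3f/f and 49.2% of Six2Cre bud cells. Endothelial cells, which should lack it, gave 0.578% in Six2CreTet2/3f/f (median 3480 UMIs a cell) and 0.333% in Six2Cre kidneys (median 4666). The bud share lay far above this background in both libraries. Ret is a rule gene and the endothelial gate left out bud cells, so this gap describes the selection and tests nothing. Hoxb7, a homeobox gene of the nephric duct, was less specific: it was detected in 83.9% and 84.4% of bud cells in Six2CreTet2/3f/f and Six2Cre kidneys, and in 17.3% and 20.9% of their endothelial cells.

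**Figure D1:**
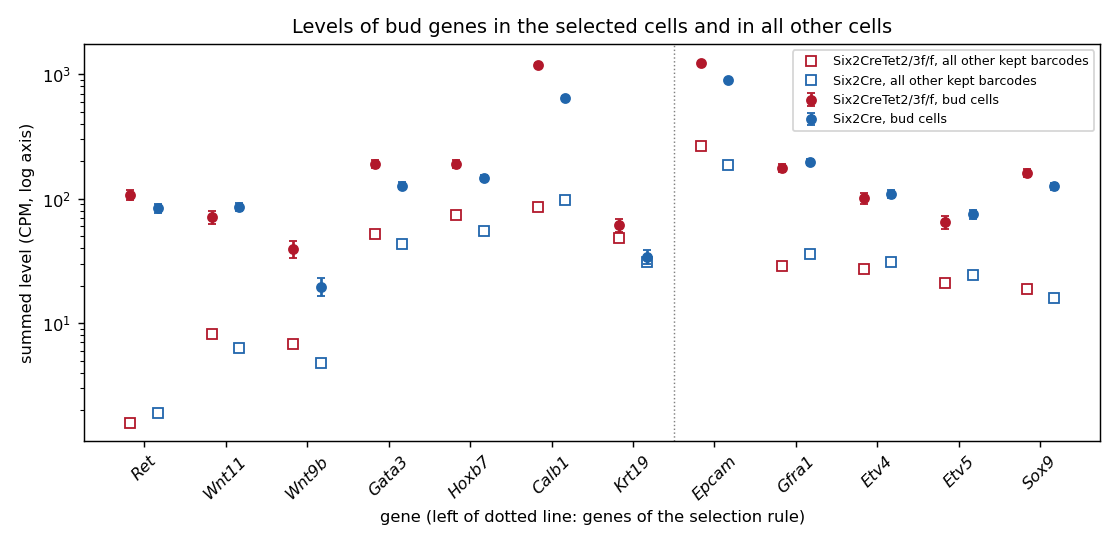
Summed level in CPM (log axis) of 12 genes in bud cells (filled circles, bars are 95% Poisson intervals) and in all other kept barcodes (open squares), Six2CreTet2/3f/f to the left of Six2Cre for each gene. Genes left of the dotted line were used to select the cells; Epcam, Gfra1, Etv4, Etv5 and Sox9 were not, and lie above the other barcodes in both libraries.

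The genes furthest above the rest of the kidney, ranked by the smaller of the ratios in the 2 libraries and given as a description, were led by Ret. Slco4c1, an organic anion transporter, had 34.6 CPM in bud cells against 1.57 CPM in the other barcodes of Six2CreTet2/3f/f kidneys, and 32.5 against 1.39 CPM in Six2Cre kidneys. The keratin Krt23 had 147 CPM in Six2CreTet2/3f/f and 149 CPM in Six2Cre bud cells, and Rprm, a cell cycle arrest gene induced by p53, had 281 and 232 CPM. Among the 20 highest were also Mia, Ptprz1, Ctnnd2, Drd4, Lcn2, Sox9, Gfra1, Cldn3, Samd5, Cdh3, Lix1 and Fbln2. Cldn3 and Lix1 had similar levels in cells with at least 3 Aqp2 UMIs. Cldn3 had 326 CPM in bud cells against 244 CPM in those of Six2CreTet2/3f/f kidneys, and 193 against 205 CPM in Six2Cre kidneys. Lix1 had 53.7 against 43.5 CPM and 27.1 against 24.5 CPM. The order is a description, since the rule chose the cells.

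The selection has a lower edge. Of the bud cells, 110 in Six2CreTet2/3f/f and 164 in Six2Cre kidneys had exactly 3 rule genes, and these had 855 and 342 CPM of Epcam and 286 and 467 CPM of the collagen Col3a1. Barcodes just outside, with exactly 2 rule genes, numbered 267 and 360, and had 308 and 191 CPM of Epcam and 668 and 702 CPM of Col3a1. On the side of the duct, 78 and 132 bud cells had 1 or 2 Aqp2 UMIs; 20 and 14 barcodes were left out for having 3 or 4, and 303 and 277 for having more.

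RNA of other cell types' markers differed between the bud cells of the 2 libraries. At least 2 UMIs over Epcam, Cdh1, Krt8 and Krt18 were found in 92.7% of bud cells in Six2CreTet2/3f/f and 84.2% in Six2Cre kidneys, against 4.41% and 5.41% of their stromal cells. The summed level of 8 stromal markers was 510 CPM in Six2CreTet2/3f/f and 948 CPM in Six2Cre bud cells; that of 6 endothelial markers was 141 and 291 CPM, of 7 podocyte markers 112 and 309 CPM, and of 6 mural markers 133 and 309 CPM. All 4 of these sums were lower in Six2CreTet2/3f/f bud cells. The opposite held for neutrophil markers, at 279 CPM in Six2CreTet2/3f/f and 17.2 CPM in Six2Cre bud cells, for erythroid markers, at 3512 and 1323 CPM, and for macrophage markers, at 122 and 65.1 CPM. In all other barcodes, erythroid markers summed to 13791 CPM in Six2CreTet2/3f/f and 4132 CPM in Six2Cre kidneys, neutrophil markers to 586 and 297 CPM, and endothelial markers to 378 and 590 CPM, in the same direction as in bud cells. The haemoglobin gene Hbb-bs was detected in 97.9% of Six2CreTet2/3f/f and 78.4% of Six2Cre bud cells. Free RNA and RNA of other cells sharing a droplet cannot be told apart here. Of single markers, Ptprc, the pan-leukocyte antigen, was detected in 30.8% of Six2CreTet2/3f/f and 21.9% of Six2Cre bud cells. It was detected in fewer of the other barcodes, 5.59% in Six2CreTet2/3f/f and 4.85% in Six2Cre kidneys. With cells thinned to equal depth, the shares were 8.53% and 3.77% of bud cells, against 2.45% and 1.92% of the other barcodes. Macrophage markers together were instead lower in bud cells than in the other barcodes, where they summed to 332 and 269 CPM. Where the Ptprc RNA in bud cells came from was not tested. Of the 5 urothelial markers, 3 were at 0 in Six2CreTet2/3f/f and 2 in Six2Cre bud cells. The part of other cells in the differences below was not tested, and each result is given with their values where they move with it.

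Bud cells made up 2.18% (95% Clopper-Pearson interval 1.96 to 2.42) of filtered barcodes in Six2CreTet2/3f/f and 1.88% (1.70 to 2.07) in Six2Cre kidneys. Detection depends on depth, so barcodes were also thinned to 2000 UMIs, with shallower ones left out. The shares were then 101 of 13668 (0.739%, 0.602 to 0.897) and 87 of 19074 (0.456%, 0.365 to 0.562). The Aqp2, Slc12a1 and Slc12a3 limits were applied to the thinned counts, so barcodes over a limit at full depth could pass. The intervals overlapped at full depth and not after thinning. The share among captured cells depends on dissociation as well as on the tissue, and the number of bud cells per kidney was not measured.

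The tip genes Ret and Wnt11 marked most bud cells. Either gene was detected in 288 of 341 bud cells (84.5%, interval 80.2 to 88.1) in Six2CreTet2/3f/f and in 343 of 398 (86.2%, 82.4 to 89.4) in Six2Cre kidneys, and the shares overlapped in their intervals. The remaining 53 and 55 cells had Wnt9b alone. Wnt11 without Ret or Wnt9b was the label of 83 (24.3%) of the Six2CreTet2/3f/f and 139 (34.9%) of the Six2Cre bud cells. Ret together with Wnt9b, without Wnt11, was found in 37 (10.9%) and 22 (5.53%). Both patterns depend on which of 3 low genes gave a UMI, and they are counts of the selection itself. Wnt11 was also found in stromal cells, at 16.4 CPM in Six2CreTet2/3f/f and 14.0 CPM in Six2Cre kidneys. All barcodes outside the bud cells had 8.15 and 6.36 CPM of it. The term tip-marked therefore names the rule, and how many of these cells are tip cells was not tested.

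Genes other than Ret, Wnt11 and Wnt9b, which made the split and are not counted, also differed between the tip-marked and the Wnt9b-only cells in both libraries. A gene was counted where it reached 25 CPM in the higher class and the 95% interval of its ratio lay wholly beyond 1.5-fold in both libraries. Of 5387 genes at that level, 17 (0.316%) were higher in tip-marked cells and 24 (0.446%) lower. The Ret-induced transcription factor Etv4 had 111 CPM in tip-marked and 34.6 CPM in Wnt9b-only cells of Six2CreTet2/3f/f kidneys, and 119 and 42.8 CPM in those of Six2Cre kidneys. Etv5, its close relative, had 71.4 against 22.5 CPM and 81.1 against 31.2 CPM. The other named genes higher in tip-marked cells were Krt23, Col14a1, Lcn2, Rassf10 and Fbln2, beside the splitting genes Ret and Wnt11. The 17 also include 2 of the 4 measured erythroid markers.

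Among the genes higher in Wnt9b-only cells were single genes of the duct and of the proximal tubule. Fxyd4, a regulator of the sodium pump in collecting duct, had 51.2 CPM in tip-marked and 287 CPM in Wnt9b-only cells of Six2CreTet2/3f/f kidneys, and 21.3 and 63.6 CPM in those of Six2Cre kidneys. Kap, an androgen-regulated gene of the proximal tubule, had 3.87 CPM in tip-marked and 144 CPM in Wnt9b-only cells of Six2CreTet2/3f/f kidneys, and 3.72 and 167 CPM in those of Six2Cre kidneys. Slc27a2, Fbp1, Ass1 and Mep1a, which are also expressed in proximal tubule, and Apela, Spink8 and Plau were among the 10 named genes lower in tip-marked cells. Of the 22 genes of the tip and Gdnf-Ret list, 14 reached the level and 3 were higher in tip-marked cells, Etv4 and Etv5 among them; of the 23 stalk and duct genes, 11 reached it and 2 were lower, Fxyd4 among them. The Wnt9b-only cells are therefore called by that rule and not by the name of a segment. The number of cells in that class, 53 and 55, sets the precision of these ratios.

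**Figure D2:**
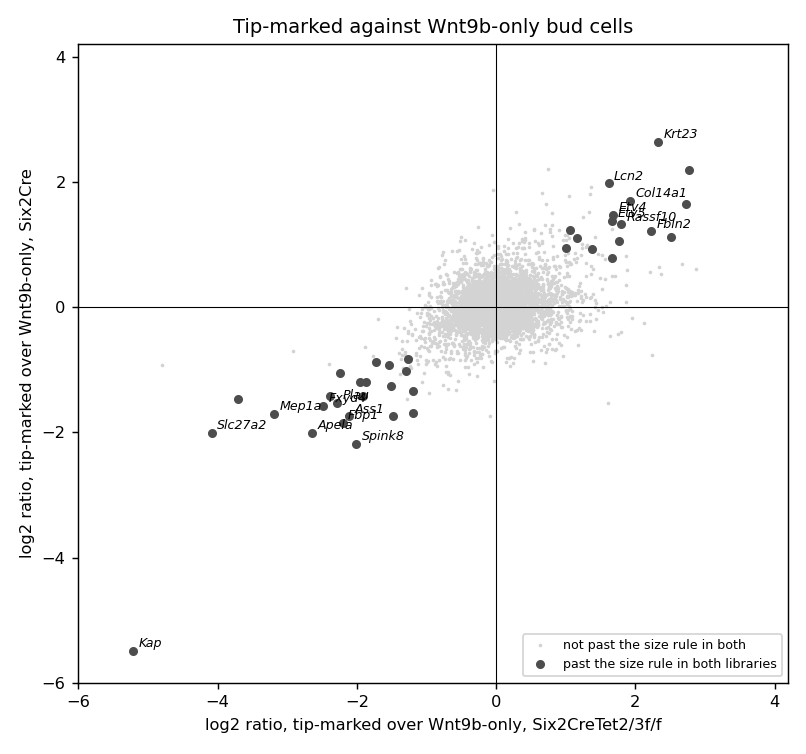
Each point is 1 gene, placed by its log2 ratio of tip-marked over Wnt9b-only bud cells in Six2CreTet2/3f/f (horizontal) and Six2Cre (vertical) kidneys; dark points are past the size rule in both libraries. Etv4, Etv5 and Krt23 lie at the upper right and Fxyd4 and Kap at the lower left; Ret, Wnt11 and Wnt9b, which made the split, are not drawn.

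Against principal cells, taken as barcodes with at least 3 Aqp2 UMIs (661 in Six2CreTet2/3f/f and 747 in Six2Cre kidneys), the bud cells held more tip and dividing-cell RNA and less duct RNA. The Aqp2 threshold separates the classes by design, so this comparison is a description. Of 5488 genes at the level, 261 (4.76%) were higher in bud cells in both libraries and 269 (4.90%) lower. Of the tip and Gdnf-Ret list, 11 of 14 were higher in bud cells, and Fgfr2, a receptor for fibroblast growth factors, was lower. Etv4 had 101 CPM in bud cells and 9.66 CPM in principal cells of Six2CreTet2/3f/f kidneys, and 109 and 19.3 CPM in those of Six2Cre kidneys. Sox9, a transcription factor of tip progenitors, had 161 against 27.3 CPM and 126 against 33.2 CPM.

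Of the stalk and duct list, 19 of 21 genes were lower in bud cells than in principal cells. The water channel gene Aqp3 had 14.5 CPM in bud cells and 228 CPM in principal cells of Six2CreTet2/3f/f kidneys, and 5.67 and 271 CPM in those of Six2Cre kidneys. Wnt7b, a duct signal needed for the medulla to form, had 9.06 against 61.0 CPM and 9.93 against 65.7 CPM. Of the mitosis genes, 14 of 15 were higher in bud cells, as were 7 of 13 S phase genes. Top2a, a topoisomerase of dividing cells, had 199 against 71.8 CPM in Six2CreTet2/3f/f and 299 against 130 CPM in Six2Cre kidneys.

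**Figure D3:**
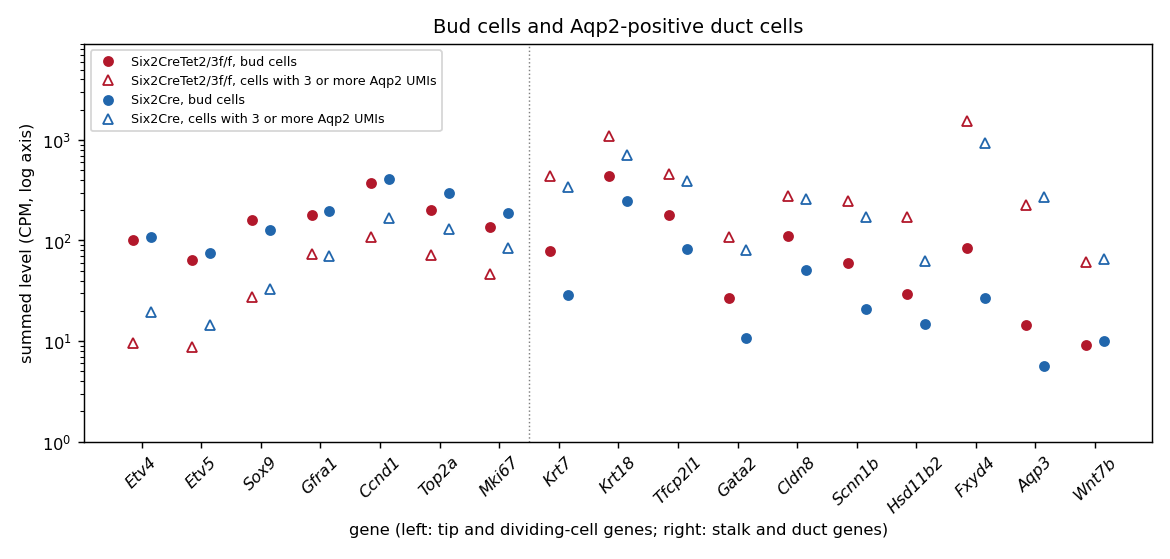
Summed level in CPM (log axis) of tip and dividing-cell genes (left of the dotted line) and stalk and duct genes (right) in bud cells (circles) and in cells with 3 or more Aqp2 UMIs (triangles), Six2CreTet2/3f/f to the left of Six2Cre. Etv4 and Etv5 are higher in bud cells in both libraries; the circles of Krt7, Scnn1b and Fxyd4 in Six2CreTet2/3f/f lie between the Six2Cre circles and the triangles.

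The share of bud cells with at least 3 UMIs over 33 S phase and mitosis genes, after thinning each cell to 2000 UMIs, was 170 of 340 (interval 44.6% to 55.4%) in Six2CreTet2/3f/f and 222 of 398 (50.7% to 60.7%) in Six2Cre kidneys, and the intervals overlapped. Without thinning it was 86.5% and 94.7%. It stood above that of principal cells, at 16.8% in Six2CreTet2/3f/f and 26.3% in Six2Cre kidneys, and was lower in the Six2CreTet2/3f/f library in each of the 4 other cell gates too. In the Wnt9b-only cells it was 34.6% (18 of 52) in Six2CreTet2/3f/f and 52.7% (29 of 55) in Six2Cre kidneys.

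The targeted genes were read first for the comparison of genotypes. Tet3 had 51.0 CPM (44.4 to 58.4) in Six2CreTet2/3f/f and 84.5 CPM (77.9 to 91.6) in Six2Cre bud cells, a ratio of 0.604 (95% conditional binomial interval 0.514 to 0.707). Tet2 had 23.9 and 36.9 CPM, a ratio of 0.647 (0.508 to 0.818). Neither passed the size rule, since the upper ends of both intervals lie within a 1.5-fold difference. In the nephron progenitors, where the Cre is active, Tet3 had 43.7 CPM in Six2CreTet2/3f/f and 91.0 CPM in Six2Cre kidneys, and Tet2 had 24.6 and 32.5 CPM. Tet3 had lower values in Six2CreTet2/3f/f than in Six2Cre cells of the stromal (42.8 and 56.9 CPM) and endothelial gates (51.5 and 66.6 CPM) as well. The third family member, Tet1, had 31.7 and 31.3 CPM in Six2CreTet2/3f/f and Six2Cre bud cells. Reads from the 3′ end of a transcript can come from outside a deleted part of the gene, so these values are no check of the deletion. Tet2 lies at chr3:133463677-133545136, Tet3 at chr6:83362373-83457208 and Ret at chr6:118151748-118197744 in GRCm38, the assembly that mm10 names.

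Across the bud cells, 5874 genes reached 25 CPM in at least 1 library. Of these, 107 (1.82%) were higher in Six2CreTet2/3f/f than in Six2Cre bud cells past the size rule and 108 (1.84%) lower, and the median log2 ratio over all of them was -0.03. Many of these genes differed between the libraries in other cells as well. In principal cells, 204 of 5747 genes (3.55%) were higher and 155 (2.70%) lower, and 49 of the 107 and 36 of the 108 bud genes had the same call there, while 6 of the 107 had the opposite one. In stromal cells, where 82 of 5496 genes (1.49%) were higher and 95 (1.73%) lower, 25 and 18 bud genes had the same call. In nephron progenitors (1.80% higher and 1.45% lower of 5452) it was 28 and 32, and in endothelial cells (1.35% and 1.76% of 5560) it was 18 and 22.

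The tip and Gdnf-Ret genes did not differ between the genotypes past the size rule over all bud cells. None of the 14 measured genes was past it in either direction, beside the 1.82% and 1.84% of all genes, and their median log2 ratio was -0.08. In other selections of the cells some were lower. With the rule applied at 2000 UMIs 1 of 14 was lower (0.618% of all genes) and the median was -0.37. Lower counts were 1 of 14 with at least 4 rule genes (0.947% of all, median -0.24), in epithelial cells free of other lineages' UMIs (1.34%, median -0.21), in those with Ptprc allowed (1.53%, median -0.29) and in Ret-detected cells (0.951%, median -0.23), and 2 of 14, Ccnd1 among them, in Wnt9b-only cells (2.09%, median 0.24). Gfra1, the Gdnf co-receptor, had 178 CPM in Six2CreTet2/3f/f and 198 CPM in Six2Cre bud cells, a ratio of 0.900 (0.823 to 0.984). Etv4 had 101 and 109 CPM, a ratio of 0.921 (0.816 to 1.04), and Spry1, an inhibitor of Ret signalling, had 102 and 106 CPM, a ratio of 0.966 (0.856 to 1.09). Each of these intervals lies within a 1.5-fold difference. Fgfr2 had 86.1 CPM in Six2CreTet2/3f/f and 58.0 CPM in Six2Cre bud cells, which did not pass the rule, and a ratio of 1.48 (1.29 to 1.71).

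The genes of stalk and duct maturation were the list with most differences. Of 13 measured genes, 9 were higher in Six2CreTet2/3f/f bud cells past the size rule, none was lower, and all 13 had a ratio above 1. Of all genes, 1.82% were higher. The median log2 ratio was 1.14. Fxyd4 had 83.7 CPM (75.2 to 93.0) in Six2CreTet2/3f/f and 26.5 CPM (22.9 to 30.6) in Six2Cre bud cells, a ratio of 3.16 (2.64 to 3.79). Scnn1b, a subunit of the epithelial sodium channel, had 60.1 and 20.8 CPM, and the simple-epithelium keratin Krt7 had 79.2 and 28.5 CPM, a ratio of 2.78 (2.33 to 3.33). All of these were past the size rule.

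Among the regulators, Tfcp2l1, a transcription factor needed for duct cell types, had 180 CPM in Six2CreTet2/3f/f and 81.8 CPM in Six2Cre bud cells, a ratio of 2.20 (1.97 to 2.45). Gata2, a zinc finger factor of the duct, had 27.0 and 10.8 CPM, a ratio of 2.50 (1.85 to 3.39). The tight junction gene Cldn8 had 112 and 50.5 CPM, the keratin Krt18 436 and 249 CPM, and Hsd11b2, which protects duct cells from glucocorticoids, 29.6 and 14.9 CPM. Krt8, Clu, Ehf and Cldn4 did not pass, with log2 ratios of 0.60, 0.58, 0.79 and 0.12. The 10 cells with most UMIs of a gene held between 16.5% (Cldn8) and 46.4% (Krt7) of the UMIs of the 9 higher genes in Six2CreTet2/3f/f bud cells.

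The same list had a median log2 ratio of 0.29 in principal cells, 0.57 in nephron progenitors, 0.12 in stroma and -0.04 in endothelium. Each median covers the list genes that reached 25 CPM in that gate. The log2 ratio of Krt7 was 1.47 in bud cells and 0.37 in principal cells, a difference of 1.11 (0.85 to 1.37, counting error only). For Fxyd4 it was 1.66 and 0.73, a difference of 0.93 (0.67 to 1.19). Hsd11b2 ran the other way, with 0.99 in bud cells and 1.45 in principal cells, a difference of -0.46 (-0.86 to -0.07).

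The size of the difference in the stalk and duct list depended on which bud cells were counted. Among cells of 2000 to 10000 UMIs the median log2 ratio was 0.47 with 2 of 13 genes higher past the size rule (0.636% of all genes), and among cells over 10000 UMIs it was 1.26 with 10 of 13 (1.91% of all genes). With the rule applied after thinning to 2000 UMIs it was 0.53 with 2 of 15 genes (1.17% of all). The median thus stayed above 0 and was smaller in shallow or equally deep cells. Among Ret-detected cells it was 0.76 with 4 of 12 (1.23% of all), among tip-marked cells 1.03 with 6 of 11 (1.51% of all), and among Wnt9b-only cells 1.52 with 12 of 18 (2.03% of all). In cells with epithelial UMIs and none of Six2, Cited1, Pecam1, Cdh5, Ptprc and 1 further marker (155 in Six2CreTet2/3f/f and 131 in Six2Cre kidneys) it was 1.09 with 6 of 13 (1.01% of all genes). The principal cell markers, of which Fxyd4, Scnn1b and Hsd11b2 are shared with it, summed to 223 CPM in Six2CreTet2/3f/f and 94.6 CPM in Six2Cre bud cells; intercalated cell markers summed to 73.5 and 34.9 CPM. The Aqp2 limit of 2 UMIs is an absolute count, and depth differed between the libraries; its part in the result was not tested.

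Of 14 measured epithelial junction genes, 3 were past the size rule, all higher in Six2CreTet2/3f/f bud cells (1.82% of all genes were). A ratio above 1 was found for 12 of the 14, and the median log2 ratio was 0.44. Cldn3, a claudin of bud and principal cells, had 326 CPM in Six2CreTet2/3f/f and 193 CPM in Six2Cre bud cells. Cldn6 had 79.7 and 45.1 CPM, and Ocln, a tight junction protein, had 27.2 and 13.5 CPM. In the cells free of other lineages' UMIs none of these genes passed and the median was 0.12. The stromal, endothelial and podocyte levels given above, higher in Six2Cre bud cells, moved with this list, and their part in it was not tested.

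Few transcription factors of the duct lineage differed by this rule. Of 13 measured genes only Emx2, a homeobox gene needed for the kidney to form, was past the size rule, beside 1.82% of all genes, with 134 CPM in Six2CreTet2/3f/f and 69.1 CPM in Six2Cre bud cells, a ratio of 1.94 (1.71 to 2.19). Emx2 was not past the rule, with log2 ratios between 0.62 and 0.85, with the rule at 2000 UMIs, with at least 4 rule genes, for 2000 to 10000 UMIs, in Ret-detected cells and in the epithelial cells free of other lineages' UMIs, with Ptprc allowed, or without neutrophil and red-cell markers. Pax2, which specifies the nephric duct, had 204 and 214 CPM, a ratio of 0.953 (0.875 to 1.04), and Lhx1 had 127 and 126 CPM, a ratio of 1.01 (0.903 to 1.12). Over this list the median log2 ratio was 0.20.

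Among signalling pathways, none of 13 FGF, BMP and TGF-beta genes and none of 4 Notch genes was past the size rule over all bud cells, with medians of 0.09 and -0.08. Id1 and Id3, targets of BMP signalling, were higher with the rule applied at 2000 UMIs, in Ret-detected cells and in the epithelial cells with Ptprc allowed (1.19% of all genes higher), and Id1 alone was for 2000 to 10000 UMIs, while Bmp2 was lower in Wnt9b-only cells. Of 15 Wnt pathway genes, Sfrp2, a secreted Wnt antagonist found in mesenchyme, was lower, at 33.6 CPM in Six2CreTet2/3f/f and 68.2 CPM in Six2Cre bud cells; with the rule applied at 2000 UMIs its log2 ratio was 0.46. Of 5 retinoic acid genes, Ecm1 was lower, at 32.2 and 62.2 CPM. Over all genes in all bud cells, 1.84% were lower and 1.82% higher. None of 16 basement membrane and integrin genes passed, with a median of 0.01. The stromal markers Col1a2 (154 and 320 CPM) and Dcn (28.6 and 70.0 CPM) moved with Sfrp2 and were lower in Six2CreTet2/3f/f bud cells past the size rule; their part in it was not tested.

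**Figure D4:**
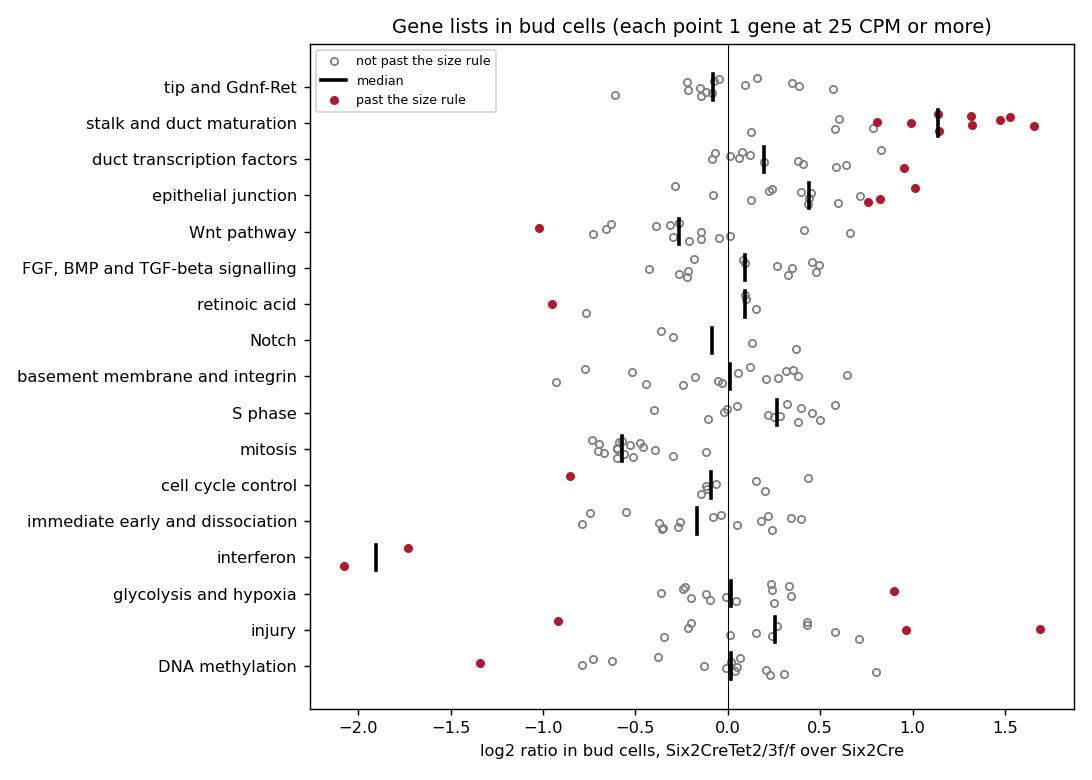
Log2 ratio of Six2CreTet2/3f/f over Six2Cre in bud cells for each measured gene of 17 lists (1 point a gene, filled where past the size rule, black bar the median of the list). All 13 stalk and duct genes lie right of 0 and all 17 mitosis genes left of it, while the 14 tip and Gdnf-Ret genes lie around 0.

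The 2 sides of the cell cycle did not move together. All 17 measured mitosis genes had lower values in Six2CreTet2/3f/f bud cells, with a median log2 ratio of -0.57, but none passed the size rule. Top2a had 199 CPM in Six2CreTet2/3f/f and 299 CPM in Six2Cre bud cells, a ratio of 0.666 (0.614 to 0.722), and Ube2c, a ubiquitin conjugase of mitotic exit, had 91.4 and 152 CPM, a ratio of 0.600 (0.533 to 0.675). Of 14 S phase genes, 10 had a ratio above 1, the median was 0.27 and none passed; Mcm6, part of the replicative helicase, had 92.1 and 67.2 CPM. The mitosis list was also below 0 in principal cells (median -0.70), nephron progenitors (-0.53), stroma (-0.40) and endothelium (-0.13). In bud cells free of other lineages' UMIs the median was -1.36 and 12 of 17 mitosis genes were lower past the size rule (1.34% of all genes). Cdkn1c, an inhibitor of cyclin-dependent kinases, was lower in all bud cells, at 258 and 466 CPM, a ratio of 0.553 (0.516 to 0.592), but not past the rule in those cells, with a log2 ratio of -0.31, nor in Ret-detected cells, with 0.05, nor with the rule applied at 2000 UMIs, with -0.05.

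Some genes were lower in the bud and in the other gates alike. Of the DNA methylation genes, 1 of 15 passed, beside 1.84% of all genes lower and 1.82% higher. It was Tdg, a glycosylase that removes oxidised methylcytosine. Tdg had 34.1 CPM in Six2CreTet2/3f/f and 86.5 CPM in Six2Cre bud cells, a ratio of 0.394 (0.326 to 0.474). Its log2 ratio of -1.34 in bud cells stood beside -1.28 in principal cells, -0.73 in nephron progenitors, -0.88 in stroma and -0.95 in endothelium. Both measured interferon-induced genes were lower, beside the same 1.84% of all genes. Bst2 had 16.7 CPM in Six2CreTet2/3f/f and 70.3 CPM in Six2Cre bud cells. Rsad2 had 63 UMIs in Six2CreTet2/3f/f and 352 UMIs in Six2Cre bud cells, a ratio of 0.301 (0.226 to 0.395) after scaling. Of the Rsad2 UMIs, 76.2% in Six2CreTet2/3f/f and 45.5% in Six2Cre bud cells were in 10 cells, and in the cells free of other lineages' UMIs, with 9 and 8 UMIs, its log2 ratio was 0.44 while that of Bst2 was -1.63. The log2 ratio of Bst2, -2.07 in bud cells, was between -2.32 and -1.66 in the 4 other gates.

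The immediate early genes, which also respond to tissue dissociation, had none of 16 past the size rule over all bud cells, and a median of -0.17; Nr4a1 was lower past it with the rule at 2000 UMIs, with at least 4 rule genes, and in Ret-detected, tip-marked and S100g-poor cells, and Egr3 without the highest doublet scores. Their medians in nephron progenitors and stroma were -0.82 and -0.87. Fos had 729 CPM in Six2CreTet2/3f/f and 942 CPM in Six2Cre bud cells. Of 14 glycolysis genes, Pfkl was higher, beside 1.82% of all genes, at 43.4 and 23.3 CPM. Its log2 ratio was between 0.61 and 0.95 in the 4 other gates.

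Of 14 genes on the injury list, Lcn2 and Lgals3 were higher and Vim was lower, beside 1.82% of all genes higher and 1.84% lower. Lcn2, a secreted iron-binding protein that is also made by bud tips, had 347 CPM in Six2CreTet2/3f/f and 178 CPM in Six2Cre bud cells. Its ratio was 1.95 (1.81 to 2.11). Lcn2 was also higher in Six2CreTet2/3f/f kidneys in all other barcodes (35.8 and 14.6 CPM) and in principal cells (39.8 and 14 CPM). So it was in stroma (9.3 and 1.84 CPM) and nephron progenitors, while endothelium went the other way (3.98 and 5.08 CPM). The neutrophil marker levels given above, higher in Six2CreTet2/3f/f bud cells, moved with Lcn2, and their part in it was not tested. Lgals3, a galectin of the duct and of macrophages, had 85.4 and 26.5 CPM, and 53.9% of its Six2CreTet2/3f/f UMIs were in 10 cells. Vim, a filament protein of mesenchyme, had 153 and 289 CPM. In the cells free of other lineages' UMIs Lcn2 and Vim were not past the rule, with log2 ratios of 0.67 and -0.31, while Lgals3 was, at 1.71.

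Some of the largest single ratios were also found in other gates. Tpm3-rs7, annotated at chr14:113314601-113316720, had 78.5 CPM in Six2CreTet2/3f/f and 2.13 CPM in Six2Cre bud cells and log2 ratios between 4.11 and 4.97 in the 4 other gates. Eif3j2 had 37.2 and 5.81 CPM, and at the other end Rnaset2b had 3.82 and 41.3 CPM. Each of these has a near-identical copy in the genome to which reads could be assigned, so their levels are uncertain. Rnase4, a secreted ribonuclease, had 53.9 CPM in Six2CreTet2/3f/f and 15.2 CPM in Six2Cre bud cells, a ratio of 3.55 (2.81 to 4.51), and was detected in 38.7% and 21.4% of them. Its log2 ratio of 1.83 in bud cells stood beside 2.63 in principal cells and 1.87 in nephron progenitors, but 0.37 in stroma and 1.21 in endothelium, where it was not past the rule. Snhg9, a noncoding RNA, had 29.3 and 94.4 CPM and was lower in every gate.

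Others rested on a few cells of the Six2CreTet2/3f/f library. The neutrophil genes S100a8 and S100a9 had 121 and 137 CPM in Six2CreTet2/3f/f bud cells, and 7.66 and 7.80 CPM in Six2Cre bud cells. Of their Six2CreTet2/3f/f UMIs, 93.3% and 90.6% were in 10 cells. In cells free of other lineages' UMIs the log2 ratio of S100a8 was -0.09. Stfa1, also a neutrophil gene, had 90.6% of its UMIs in 10 cells.

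S100g, which encodes a calcium-binding protein of distal nephron and duct, had 448 CPM in Six2CreTet2/3f/f and 90.2 CPM in Six2Cre bud cells, with 79.6% of the Six2CreTet2/3f/f UMIs in 10 cells. More than 2 S100g UMIs were found in 34 Six2CreTet2/3f/f and 63 Six2Cre bud cells, and these held 2560 and 213 CPM of it. The 307 and 335 bud cells with at most 2 UMIs had 46.5 and 46.2 CPM. In Six2CreTet2/3f/f kidneys the antimicrobial peptide gene Defb1 went with S100g, at 217 CPM in the S100g-rich cells and 8.23 CPM in the others. In Six2Cre kidneys it did not, at 4.83 CPM in the S100g-rich cells and 10.6 CPM in the others. Tmem52b was higher in the S100g-rich cells of both libraries. It had 173 against 25.5 CPM in Six2CreTet2/3f/f and 25.8 against 9.44 CPM in Six2Cre kidneys. Without the S100g-rich cells the log2 ratio of Defb1 was -0.36. Those cells also had less Wnt9b, at 7.47 and 9.13 CPM, against 45.4 and 23.3 CPM in the other bud cells of Six2CreTet2/3f/f and Six2Cre kidneys.

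A further set was lower in Six2CreTet2/3f/f bud cells and holds genes known from other nephron or vessel cells, some of them lower in other gates too. Aqp1, a water channel of proximal tubule and vessels, had 8.11 CPM in Six2CreTet2/3f/f and 38.6 CPM in Six2Cre bud cells, with 100% and 75.7% of its UMIs in 10 cells. Podxl, a podocyte and endothelial sialomucin, had 14.1 and 51.5 CPM, with 67.8% and 66.4% in 10 cells. The log2 ratio of Aqp1 was between -2.55 and -1.27 in the 4 other gates, past the rule in endothelium alone. Gpx3, a secreted peroxidase of proximal tubule, had 63 UMIs in Six2CreTet2/3f/f and 516 UMIs in Six2Cre bud cells, a ratio of 0.205 (0.156 to 0.267), and was lower past the rule in all 4 other gates, with log2 ratios between -2.19 and -0.93. Rpgrip1, Ifi27l2a, Cpn1, Srgap1 and Tubb6 completed the 10 lowest ratios. Of these, Rpgrip1, Ifi27l2a and Cpn1 had log2 ratios between -3.99 and -1.98 in the 4 other gates.

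**Figure D5:**
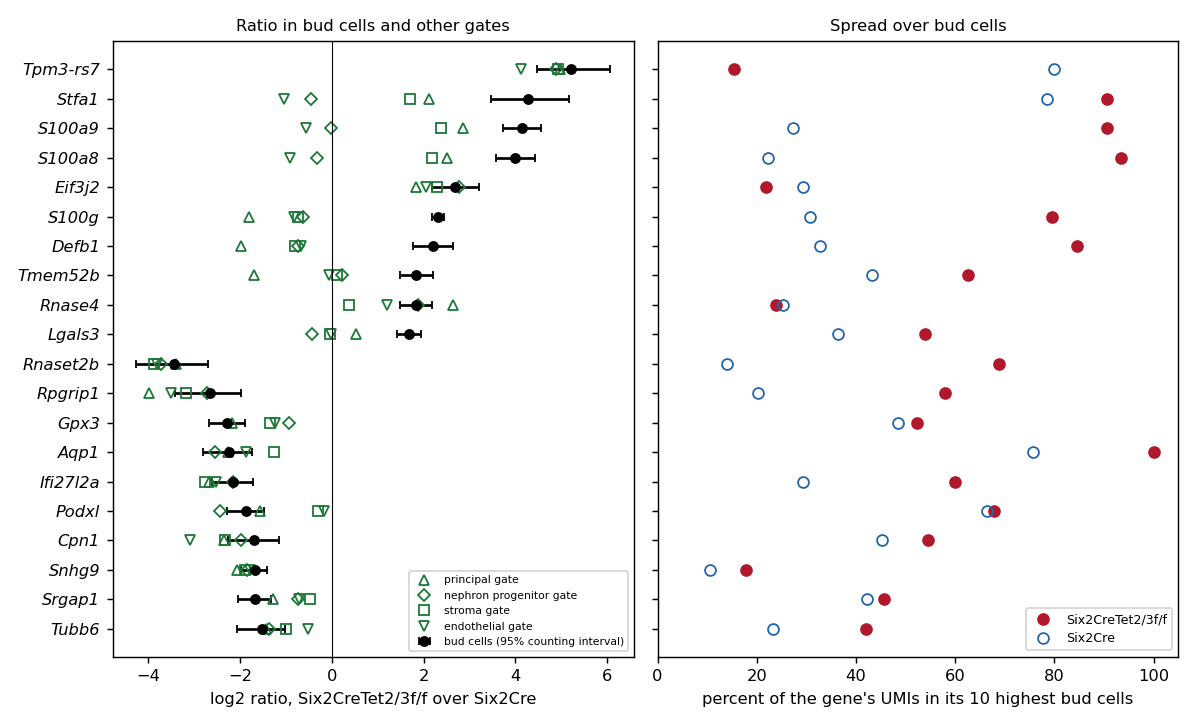
Left: log2 ratio of Six2CreTet2/3f/f over Six2Cre for the 10 highest and 10 lowest genes in bud cells (black, 95% counting interval) and the same ratio in 4 other gates (green symbols). Right: percent of each gene's bud-cell UMIs that its 10 highest cells hold, filled red for Six2CreTet2/3f/f and open blue for Six2Cre; S100a8, S100a9 and Stfa1 exceed 90% in Six2CreTet2/3f/f, and S100g, Defb1 and Tmem52b have opposite signs in bud and principal cells.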

How the data were processed

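Per the labels' protocols, kidneys were digested, cleared of debris and dead cells, and 10000 cells per library were loaded for droplet 3′ sequencing. The deposited values are raw UMI counts per gene and barcode, written by the authors with Cell Ranger 6.0.2 on mm10 per the submitters' processing notes (6.0.1 per the file headers). Each matrix covers 31053 genes and holds more barcodes than the cells loaded. Which annotation release was used is not given in the sources used here.

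Kept barcodes had at least 1000 UMIs, 500 genes and under 15% mitochondrial UMIs. Doublets were not removed; leaving out the 8% of barcodes with the highest scrublet scores (1252 in Six2CreTet2/3f/f and 1695 in Six2Cre) was an alternative. UMIs were summed over cells and scaled to CPM. The size rule asked for at least 25 CPM in the higher group and an exact conditional binomial 95% interval wholly beyond 1.5-fold. For a gene at 0 in a group, the ratio used 3 counts. The rule was tested on simulated data. Shares have Clopper-Pearson intervals. Differences of log2 ratios between gates have normal intervals from the counts. Other gates were set by markers: at least 3 Aqp2 UMIs (principal), at least 2 of Six2, Cited1, Eya1 and Meox1 with Six2 or Cited1 among them (nephron progenitor), at least 3 of 6 stromal genes, or at least 2 of 4 endothelial genes, without markers of other classes.

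Named genes were Tet1, Tet2, Tet3, the rule genes, list genes past the rule or with a role in the bud, and the 10 highest and 10 lowest ratios, without mitochondrial, ribosomal, haemoglobin, sex-linked and predicted genes and without genes under 0.2 of their level in another gate; Col1a2, Dcn and Ptprc were named as markers. The sex-linked exclusion covered Y-linked genes, Xist and Tsix alone, so S100g, which lies on chromosome X, was kept, and it was kept with its values seen. Id1, Id3, Bmp2, Nr4a1 and Egr3 were named after their values were seen. Some genes of the lists and gates are not reported here. The cell rule and the gene lists were chosen with earlier results of these data known. Coordinates are RefSeq's for GRCm38.p6. An alternative scaling used TMM factors from edgeR 4.0.16 in R 4.3.3, and all else ran in Python 3.11.15 with scanpy 1.11.5, scipy 1.17.1, matplotlib 3.10.9, numpy 2.4.6 and pandas 2.3.3.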

Additional observations from a re-analysis of the deposited data

Results flagged for a closer look

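Some genes were past the size rule in opposite directions in bud cells and in another cell gate. Whether the effects differ between cell types was not tested over replicates, since each genotype has 1 library. S100g, higher in Six2CreTet2/3f/f bud cells with a log2 ratio of 2.31, had -1.81 in principal, -0.74 in stromal and -0.84 in endothelial cells. Defb1, at 2.19 in bud cells, had -1.99 in principal cells, and Tmem52b, at 1.84 in bud cells, had -1.69 there. S100a8, at 3.99 in bud cells, had -0.91 in endothelial cells, but was also higher past the rule in principal cells (2.51) and stromal cells (2.18). In Six2CreTet2/3f/f bud cells, the 10 highest cells held 79.6% of the UMIs of S100g, 84.5% of those of Defb1, 62.6% of those of Tmem52b and 93.3% of those of S100a8.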

How the results depend on the processing

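Each genotype has 1 library, so no replicate could be left out. No paired analysis was possible because each genotype has replicate 1 alone. Of 76 alternative values of the shares and gene counts, 57 stayed within the limits of the main value and 19 moved. Of 1449 gene ratios, 30 changed sign for genes whose main interval excluded equal levels. Sign changes of other genes were not counted. The log2 ratio of the bud cell share, Six2CreTet2/3f/f over Six2Cre, was 0.70 with the selection applied at 2000 UMIs, 0.68 among cells with epithelial UMIs and no other lineage's UMI (0.73 with Ptprc allowed), 0.64 for cells of 2000 to 10000 UMIs, 0.47 above 10000 UMIs and 0.48 for Ret-detected cells. The genes higher and lower past the size rule were 70 and 37 with the selection at 2000 UMIs, 71 and 55 in Ret-detected cells, 164 and 191 at a minimum of 10 CPM, and 254 and 278 with no minimum. The higher count was 59 in the epithelial cells, 69 with Ptprc allowed and 37 for 2000 to 10000 UMIs, and the lower count was 55 with at least 4 of 7 rule genes. The cycling share differed by -18.1 points in Wnt9b-only cells. Apart from fewer cells or another minimum by construction, the cause was not tested. With TMM factors no list median and no ratio of a gene named here changed sign, but 1 gene each of the S phase, glycolysis and DNA methylation lists crossed to a ratio above 1, and 2 duct transcription factors were higher. Across the alternatives up to 2 basement membrane genes were lower, against none in all bud cells.

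The following log2 ratios had the opposite sign to the main value. They cover genes whose main interval excluded equal levels and lists whose main median exceeded 0.2 in size. Smaller main values also changed sign and are not listed. For example, the retinoic acid median was 0.09 in the main selection and -0.42 with the selection at 2000 UMIs. With the selection at 2000 UMIs the median of the Wnt list was 0.13, and the ratio was -0.094 for Defb1, 0.46 for Sfrp2, 1.30 for Wt1, -0.12 for Ret, -0.039 for Sox9 and -0.083 for Cldn7. In the epithelial cells it was -0.088 for S100a8, 0.44 for Rsad2, 0.29 for Wt1, -0.13 for Sox9 and -0.0040 for Cdh1. With Ptprc allowed it was -0.19 for Hbb-bt, 0.43 for Wt1 and -0.031 for Cdh1. For 2000 to 10000 UMIs the injury list median was -0.19, and the ratio was -0.54 for Defb1, 0.47 for Wt1, 0.018 for Fos, -0.18 for Cdh1 and 0.36 for Ccnd1. With at most 2 S100g UMIs it was -0.36 for Defb1 and 0.097 for Ccnd1, and in Ret-detected cells 0.048 for Cdkn1c and -0.073 for Sox9. In Wnt9b-only cells the S phase median was -0.068, and the ratio was -0.50 for Hba-a1, -0.37 for Hba-a2, 0.17 for Umod, 0.51 for Gfra1, 0.42 for Fos and 0.52 for Mki67. By the mean CPM per cell it was 0.013 for Ccnd1. The lower podocyte gene Wt1 and the higher Defb1 thus depended on which cells were counted.

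Chosen after seeing the data were the epithelial cells with Ptprc allowed, with 2 or more epithelial UMIs, and with these but no neutrophil or red-cell marker, and the cells over 10000 UMIs, with at most 2 S100g UMIs, Ret-detected, tip-marked and Wnt9b-only. With 1 library per genotype, neither spread between animals nor between libraries can be given.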
